A study of Mus musculus with 26 samples.

Results

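Trophectoderm genes, which mark the outer epithelium of the blastocyst, were followed through a bulk RNA-seq series of mouse R1 embryonic stem cells (ESCs). The 10 genes, Cdx2, Eomes, Elf5, Gata2, Gata3, Tfap2a, Tfap2c, Krt8, Krt18 and Hand1, were picked by name from the 55291 genes of the deposited count table. A filter on low counts kept 20953 genes and 9 of the 10 members, and Elf5, which did not pass it, is described by its counts. The series holds 26 libraries in 13 groups of 2 replicates, all from poly(A) RNA of R1 cells grown with LIF on gelatin.

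The control groups were untreated ESC and ESC given DMSO. Totipotent-like states were sought in 2 ways. Cells were given small molecules, either retinoic acid (RA, 0.53 µM over 48 h) or pladienolide B (PlaB, an inhibitor of splicing, 4 nM over 4 days). Other cells carried transgenes under doxycycline (4 µg/mL, 24 h), which were Zscan4 (Zscan4 OE), Dux in its wild-type form (Dux OE), and Dux with the R70A change that impairs its condensates (Dux R70A OE). Dux was knocked down by shRNA (Dux KD) in cells with RA, PlaB or Zscan4 OE. SE KO cells, which lack the super-enhancer near the Tdpoz genes, were given RA, PlaB or Dux OE. Which shRNA the sequenced cells carried and the number of SE KO clones are not given in the sources used here. No group is a knockdown or SE KO without an induction, so what either does by itself and what it does to an induction cannot be told apart. The labels also name no group with a control shRNA and no control clone. Loss of Dux and delivery of the shRNA, or the deletion and the choice of clone, therefore cannot be told apart. Replicate 1 of SE KO RA has a genotype label of WT beside a title of SE KO, and the calls that rest on it are given with and without it. Both libraries labelled Dux KD Zscan4 OE carry the treatment label "no", so that their induction rests on their titles.

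In the embryo the trophectoderm is the first lineage to separate from the pluripotent cells, and it goes on to form the placenta. Where Hippo signalling is off, in the outer cells, YAP1 enters the nucleus and acts with TEAD4, and together with Notch signalling this turns on Cdx2, while Gata3 follows TEAD4 in parallel. Eomes, Elf5 and Tfap2c then maintain trophoblast stem cells, Gata2 and Tfap2a act in differentiating trophoblast, Hand1 promotes giant cells, and keratins 8 and 18 form the intermediate filaments of the epithelium. Several of these genes also act elsewhere, Eomes, Cdx2 and Hand1 in the primitive streak or mesoderm, Tfap2c in germ cells, Tfap2a and Gata3 in surface ectoderm, and both keratins in most simple epithelia.

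Library totals ranged from 14401452 to 39402840 counts with a median of 18276934. The floor used here, 3 counts in a library, equalled 0.0796 to 0.226 CPM, the count relative to the TMM-scaled library size. Duxf3, the knockdown target as the table names it, lay at 2.16 and 2.75 CPM in RA against 0.353 and 0.918 CPM in Dux KD RA. It lay at 8.21 and 9.25 CPM in PlaB against 0 and 0.0589 CPM in Dux KD PlaB, and at 0.923 and 1.75 CPM in Zscan4 OE against 0 and 0.0649 CPM in the libraries labelled Dux KD Zscan4 OE. In those libraries Zscan4c had 0.779 and 1.13 CPM, against 99.9 and 103 CPM in Zscan4 OE and 5.73 and 6.13 CPM in ESC, and Zscan4a, Zscan4b, Zscan4d and Zscan4e likewise lay below ESC. Zscan4f, the other member of this family of near-identical genes, had 16.0 and 13.2 CPM there, against 56.1 and 53.1 CPM in Zscan4 OE and 3.11 and 2.13 CPM in ESC. All 6 genes lay below Zscan4 OE, so that the lower Zscan4 level and Dux KD cannot be told apart in a comparison of these groups, and the Zscan4 gene that the transgene carries is not given in the sources used here. Duxf3 had 0 counts in both Dux R70A OE libraries, so the transgene of that group is not visible in this gene. Dux OE had 3.24 and 4.01 CPM of it, below PlaB, which carries no transgene. Its transgene and the native gene cannot be told apart there. Duxf3 also lay below the matching induction in SE KO cells. It had 0.0930 and 0.423 CPM with RA, 1.65 and 2.10 CPM with PlaB and 1.28 and 1.46 CPM with Dux OE. The deletion and the lower Duxf3 level cannot be told apart in these groups. Tdpoz3 had 0.326 and 0.705 CPM in RA, 8.57 and 9.02 CPM in PlaB and 35.3 and 38.4 CPM in Dux OE. With SE KO it had 0.0930 and 0.169, 0.885 and 1.30, and 6.83 and 8.97 CPM, in the same order. All 7 pluripotency markers examined were above the floor in every group, with a summed level of 5608 and 5626 CPM in the ESC libraries.

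The resting levels of the members differed widely. On a scale that corrects for exon length (RPKM), the mean level of the ESC and DMSO groups was 19.8 for Tfap2c, 5.32 for Krt8, 3.82 for Krt18 and 2.07 for Eomes. Tfap2a followed with 0.921 RPKM, Hand1 with 0.315 RPKM and Gata2 with 0.290 RPKM. Cdx2 and Gata3, which mark the onset of the lineage, stood at 0.0414 and 0.0147 RPKM. In the 4 control libraries Cdx2, Gata3 and Elf5 had no more than 3 counts each, while the other 7 members were above the floor in every one of them.

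**Figure D1:**
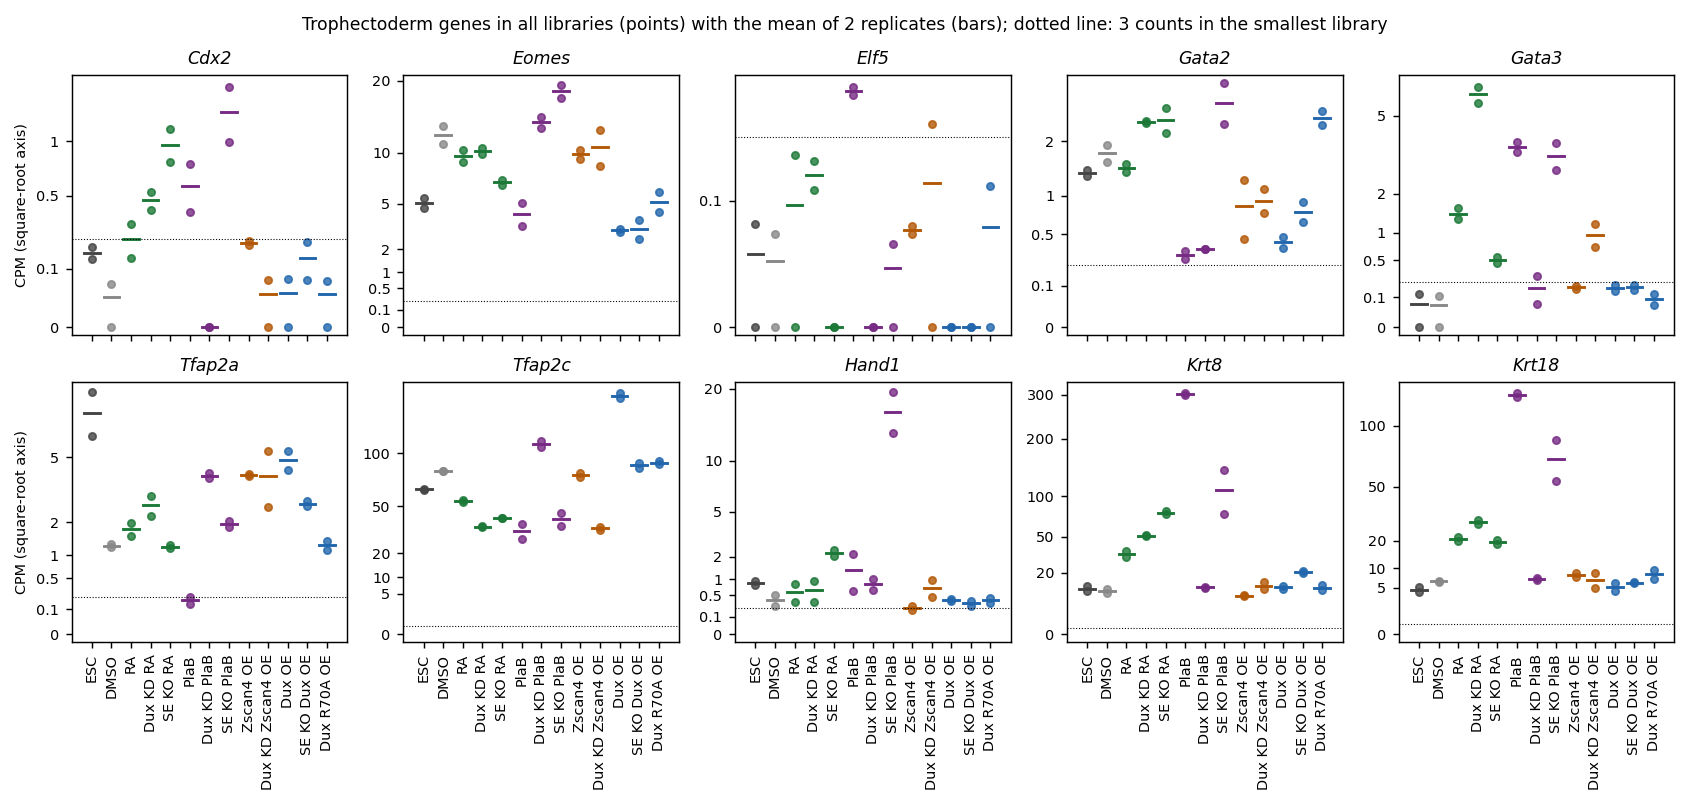
Levels of the 10 members in CPM (square-root axis) in each of the 13 groups, with libraries as points, the mean of 2 replicates as bars and 3 counts in the shallowest library as a dotted line. Krt8 and Krt18 are highest in PlaB, Tfap2c in Dux OE, Eomes and Hand1 in SE KO PlaB and Tfap2a in ESC, and Elf5 lies above the line in both libraries of PlaB and in 1 library labelled Dux KD Zscan4 OE.

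Members were compared between groups with edgeR's quasi-likelihood test, fitted to all libraries and all tested genes. Calls required a Benjamini-Hochberg adjusted p under 0.05 and a log2 change of 1 or more in either direction. In RA against DMSO, 3 of the 9 tested members were called higher (Gata3, Krt8 and Krt18), beside 20.6% of all tested genes. In the same comparison 0 members were called lower, beside 10.4% of all genes, with 1 lower at an unadjusted p under 0.05 and 0 called by DESeq2. In PlaB against DMSO, 5 members were called higher (Cdx2, Gata3, Krt8, Krt18 and Hand1) beside 32.3% of all genes, and 4 lower (Eomes, Gata2, Tfap2a and Tfap2c) beside 26.6%, so each of the 9 tested members was called in one direction. With ESC in place of DMSO, Eomes, Tfap2c and Hand1 were no longer called in PlaB. RA and PlaB were compared with the same DMSO libraries, whose labels give no time. The median log2 fold change of the tested members was 0.49 in RA and 1.79 in PlaB, with genes at the floor in DMSO entered at their bound, against 0.11 and 0.22 over all genes. The medians over all genes are of fitted values without bounds, which for the members gave 0.59 and 1.82. In PlaB members lay on both sides of 0, and the median of 1.79 is the bound of Cdx2 alone. In bulk RNA, more cells that express a gene and more RNA per cell cannot be told apart.

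The overexpression groups were compared with ESC, whose labels give no doxycycline. No group had doxycycline without one of these transgenes, so transgene and doxycycline cannot be told apart. In Zscan4 OE against ESC, 0 members were called higher, beside 7.25% of all genes (3 at an unadjusted p under 0.05, 0 by DESeq2), and 1 was called lower (Hand1), beside 4.39%. In Dux OE against ESC, 1 member was called higher (Tfap2c) beside 7.38% of all genes, and 1 lower (Gata2) beside 2.12%. In Dux R70A OE against ESC, 0 were called higher, beside 10.2% (3 at an unadjusted p under 0.05, 0 by DESeq2), and 1 lower (Tfap2a), beside 6.72%. Set against Dux OE, Dux R70A OE had 1 member called higher (Gata2) beside 6.11% and 1 lower (Tfap2a) beside 7.51%. The controls also differed from each other, since in DMSO against ESC 1 member was called higher (Eomes), beside 8.32% of all genes, and 1 lower (Tfap2a), beside 7.91%.

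Dux KD and SE KO groups were compared with their inductions. In Dux KD PlaB against PlaB, 3 members were called higher (Eomes, Tfap2a and Tfap2c) beside 26.1% of all genes, and 4 lower (Cdx2, Gata3, Krt8 and Krt18) beside 28.8%. In SE KO PlaB against PlaB, 4 were called higher (Eomes, Gata2, Tfap2a and Hand1) beside 25.9%, and 1 lower (Krt8) beside 26.1%. In Dux KD RA against RA, 1 member was called higher (Gata3), beside 6.41% of all genes, and 0 lower, beside 4.54% (1 at an unadjusted p under 0.05, 0 by DESeq2). In SE KO RA against RA, 3 were called higher (Cdx2, Krt8 and Hand1) beside 6.57%, and 1 lower (Gata3) beside 11.0%, and without replicate 1 of SE KO RA the counts were again 3 and 1, for the same genes. In the libraries labelled Dux KD Zscan4 OE against Zscan4 OE, 1 member was called higher (Gata3) beside 5.78%, and 1 lower (Tfap2c) beside 5.35%. In SE KO Dux OE against Dux OE, 0 were called higher, beside 2.46% (1 at an unadjusted p under 0.05, 0 by DESeq2), and 0 lower, beside 3.84% (2 at an unadjusted p under 0.05, 1 by DESeq2, Tfap2c). The median of the tested members was -0.74 in Dux KD PlaB and 1.19 in SE KO PlaB on the log2 scale, against -0.14 and -0.07 over all genes. The member medians are the uncalled values of Hand1 in Dux KD PlaB and of Cdx2 in SE KO PlaB. Both of these comparisons share the PlaB libraries with PlaB against DMSO, so opposite signs there are not independent.

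**Figure D2:**
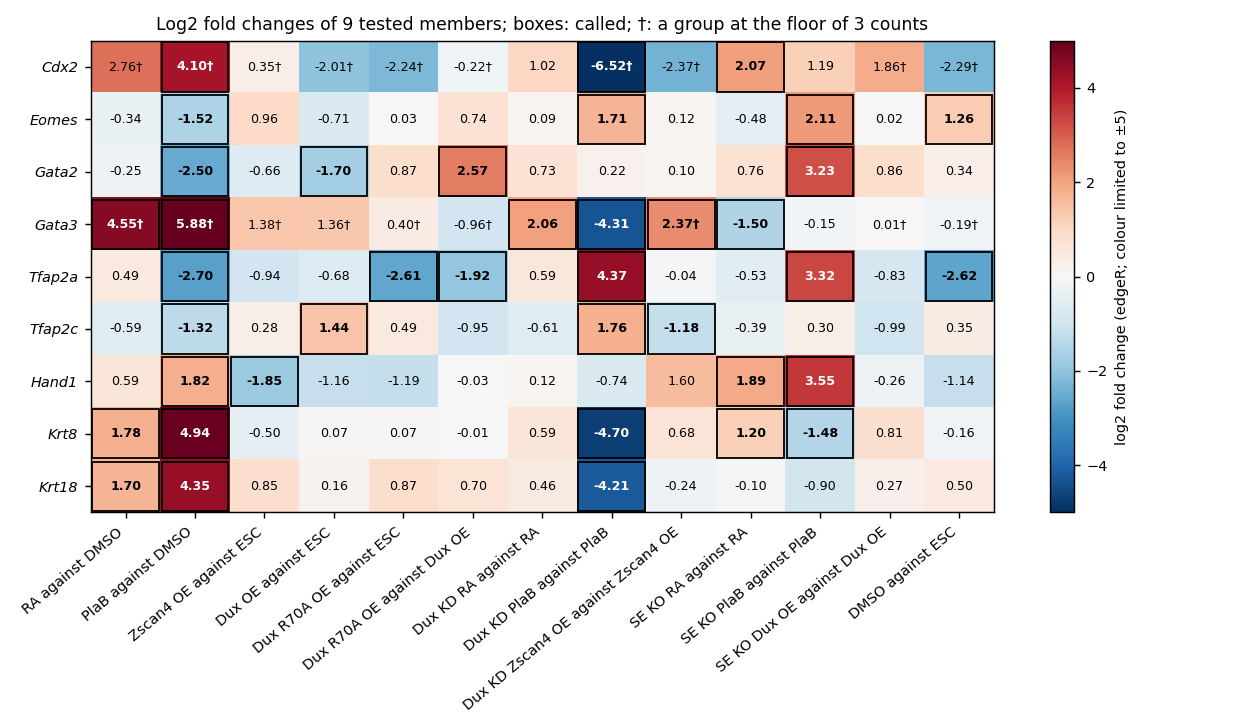
Log2 fold change of the 9 tested members (rows) in the 13 comparisons (columns), with colour limited to 5 in either direction, boxes around called values and a dagger where a group is at the floor. Values with a dagger depend on the prior count of the fit and are not bounds. Every row of PlaB against DMSO is boxed, and no row of SE KO Dux OE against Dux OE is.

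Keratins 8 and 18 pair up as filaments of the simple epithelium, and their genes, Krt8 (15:101996698-102004482, minus strand) and Krt18 (15:102028180-102032027, plus strand), lie 23697 bases apart in mm10. Krt8 had 10.7 and 8.99 CPM in DMSO, 31.3 and 36.4 CPM in RA and 299 and 304 CPM in PlaB. It rose by 1.78 ± 0.19 (SE) on the log2 scale in RA (adjusted p = 1.02e-08) and by 4.94 ± 0.20 in PlaB (adjusted p = 2.29e-18), a 30.7-fold rise. Krt18 had 6.35 and 6.52 CPM in DMSO, 20.2 and 21.8 CPM in RA and 129 and 133 CPM in PlaB, which made log2 changes of 1.70 ± 0.20 and 4.35 ± 0.20 (adjusted p = 4.75e-08 and 5.10e-17). For both keratins the 3 groups did not overlap, with PlaB highest. Per length, PlaB gave 154 RPKM of Krt8 and 91.4 RPKM of Krt18. Zscan4 OE, Dux OE and Dux R70A OE held 7.57 to 12.6 CPM of Krt8 and 4.26 to 9.39 CPM of Krt18, and none of these was called.

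The keratin levels of PlaB were not kept in Dux KD cells. Dux KD PlaB held 11.5 and 11.8 CPM of Krt8 and 6.78 and 7.41 CPM of Krt18, levels that were not tested against DMSO. Against PlaB, Krt8 changed by -4.70 ± 0.19 on the log2 scale (25.9-fold lower, adjusted p = 6.11e-18) and Krt18 by -4.21 ± 0.20 (18.5-fold lower, adjusted p = 1.08e-16). In SE KO PlaB the replicates lay apart, at 75.7 and 141 CPM of Krt8 and at 54.3 and 86.3 CPM of Krt18. All 4 values were below those of PlaB and above those of DMSO. Krt8 was called lower there, with a log2 change of -1.48 ± 0.16 (adjusted p = 3.85e-09), and Krt18 was not, with -0.90 ± 0.16 (adjusted p = 1.59e-05), because its change missed the fold threshold. DESeq2 called Krt18 lower too, and with 1 library left out its change ranged from -1.25 to -0.58. Under RA both Dux KD and SE KO lay above their induction for Krt8. It had 51.6 and 50.4 CPM in Dux KD RA and 79.9 and 75.3 CPM in SE KO RA, above both RA libraries, and the SE KO change of 1.20 ± 0.17 was called (adjusted p = 1.43e-06) while the Dux KD change of 0.59 ± 0.17 was not (adjusted p = 0.00699). Without replicate 1 of SE KO RA, Krt8 changed by 1.16. Krt18 had 27.8 and 30.1 CPM in Dux KD RA and 20.6 and 18.7 CPM in SE KO RA, and neither was called, nor was SE KO RA without replicate 1 (-0.17). The pseudogene Krt8-ps had 67 counts over all 26 libraries against 28238 for Krt8.

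Cdx2 (5:147300805-147307270), the homeobox gene that separates trophectoderm from inner cell mass, stayed low in every group, with 180 counts in all libraries together. It had 10 counts or more in 5 libraries, both of SE KO PlaB, both of SE KO RA and 1 of PlaB. Cdx2 thus passed the low-count filter through groups where it was high, and its calls in those groups are not independent of that filter. DMSO libraries had 0 and 1 counts, RA 7 and 3, and PlaB 8 and 17, or 0.387 and 0.771 CPM in PlaB. The ratio of PlaB to DMSO was 21.0, with a 95% exact interval of 3.44 to 862.5 that covers counting error only, and the rise was called (adjusted p = 0.000971). The ratio of RA to DMSO was 8.12 (95% exact interval 1.16 to 352), and it was not called (adjusted p = 0.0526). In Dux KD PlaB both libraries had 0 counts, at least 3.25-fold lower than PlaB when 3 counts per library are taken as the floor (adjusted p = 0.000265). The highest levels of Cdx2 were in SE KO cells given PlaB (0.997 and 1.68 CPM) or RA (0.791 and 1.14 CPM). SE KO Dux OE had only 0.212 and 0.0654 CPM and was not called against Dux OE (adjusted p = 0.315). SE KO RA lay above RA (0.308 and 0.140 CPM) by a log2 change of 2.07 ± 0.65 (adjusted p = 0.0106). Without replicate 1 of SE KO RA it was 2.31 and still called, but it was not called without RA replicate 2 (1.63, adjusted p = 0.120) or without SE KO RA replicate 2 (1.78, adjusted p = 0.0938). The change of SE KO PlaB against PlaB, 1.19 ± 0.56, was not called (adjusted p = 0.0591). Zscan4 OE had 3 and 4 counts of Cdx2, Dux OE 0 and 1, and Dux R70A OE 0 and 1, so at this depth no expression above the ESC level was detectable in Dux OE or Dux R70A OE.

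Gata3 (2:9857078-9890034), a zinc finger factor that can act beside Cdx2 in the trophectoderm, rose from the floor in both chemical inductions. DMSO held 0 and 2 counts, RA 36 and 28, and PlaB 71 and 85, or 1.59 and 1.30 CPM in RA and 3.44 and 3.85 CPM in PlaB. The ratios to DMSO were 25.98 in RA (95% exact interval 6.91 to 219, adjusted p = 1.75e-06) and 65.5 in PlaB (17.8 to 546.0, adjusted p = 9.56e-10). The Dux KD groups then went opposite ways. In Dux KD PlaB Gata3 had 0.295 and 0.0598 CPM, a log2 change of -4.31 ± 0.49 (adjusted p = 1.16e-08), while in Dux KD RA it had 6.49 and 5.65 CPM, the highest level of the series, a change of 2.06 ± 0.33 (adjusted p = 1.78e-05). Gata3 also rose in the libraries labelled Dux KD Zscan4 OE, whose Zscan4c was low, with 11 and 16 counts against 3 and 3 in Zscan4 OE, a ratio of 5.31 (95% exact interval 2.15 to 15.7, adjusted p = 0.00377), which was not called without replicate 2 of that label (log2 change 1.97, adjusted p = 0.0524). In SE KO RA it was lower than in RA, at 0.465 and 0.550 CPM, with a change of -1.50 ± 0.42 (adjusted p = 0.00474) and of -1.38 without replicate 1. SE KO PlaB had 2.77 and 3.82 CPM and overlapped with PlaB, and its change of -0.15 ± 0.31 was not called (adjusted p = 0.680). In Dux OE, SE KO Dux OE and Dux R70A OE no library had more than 6 counts of Gata3.

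The bases before the start sites of Cdx2, Gata3, Krt8 and Krt18 are shown because these are the members that were higher in PlaB and lower in Dux KD PlaB. Each run is the 250 bases before the RefSeq start (GRCm38.p6), 5′ to 3′ on the gene's strand, and the RefSeq promoter table used here matched 8 of the 10 members. Capitals mark matches, on either strand, to any of 4 motifs. For TEAD factors the letters searched were GGAATG. For AP-2 factors they were GCCNNNGGC. For the GATA family a match was AGATAA, and so was TGATAA. For the core of the DUX site they were GATTNAATC.
Cdx2, chr5:147307250-147307499, minus strand: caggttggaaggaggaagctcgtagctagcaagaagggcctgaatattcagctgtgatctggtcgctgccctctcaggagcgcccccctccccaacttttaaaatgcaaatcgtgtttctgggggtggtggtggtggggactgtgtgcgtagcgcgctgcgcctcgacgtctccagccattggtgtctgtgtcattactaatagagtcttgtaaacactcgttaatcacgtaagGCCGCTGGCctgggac
Gata3, chr2:9878601-9878850, minus strand: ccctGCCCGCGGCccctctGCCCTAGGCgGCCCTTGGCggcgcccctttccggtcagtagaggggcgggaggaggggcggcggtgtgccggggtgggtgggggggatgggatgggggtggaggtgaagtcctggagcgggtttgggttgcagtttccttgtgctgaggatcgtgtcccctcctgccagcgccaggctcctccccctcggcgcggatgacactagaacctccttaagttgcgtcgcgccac
Krt8, chr15:102004343-102004592, minus strand: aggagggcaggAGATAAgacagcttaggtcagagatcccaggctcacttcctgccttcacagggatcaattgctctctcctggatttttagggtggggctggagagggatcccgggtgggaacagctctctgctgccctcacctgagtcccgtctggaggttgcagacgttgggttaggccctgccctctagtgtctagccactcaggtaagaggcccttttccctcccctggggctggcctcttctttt
Krt18, chr15:102027966-102028215, plus strand: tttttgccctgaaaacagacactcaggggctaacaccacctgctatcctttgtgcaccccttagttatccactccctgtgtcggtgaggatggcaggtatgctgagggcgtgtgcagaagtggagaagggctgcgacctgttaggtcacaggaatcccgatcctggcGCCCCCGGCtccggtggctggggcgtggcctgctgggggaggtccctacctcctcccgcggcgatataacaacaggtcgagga

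In these runs the AP-2 letters occurred 3 times before Gata3 and once each before Cdx2 and Krt18, a GATA match occurred before Krt8, and no TEAD or DUX core letters were found. Among the 32851 promoters of that table at the same length, 13.7% held the AP-2 letters, 16.6% a GATA match, 12.6% the TEAD letters and 0.247% the DUX core. Of the other members with a promoter, Elf5 had a TEAD match, and Eomes, Gata2 and Tfap2a had none of the 4. The matches are a description of the letters, not of bound sites. The RefSeq start of Gata3 lies 11434 bases inside the gene as the table draws it, and that of Krt8 lies 140 bases inside, so for these genes the counted model begins before the start site used here.

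**Figure D3:**
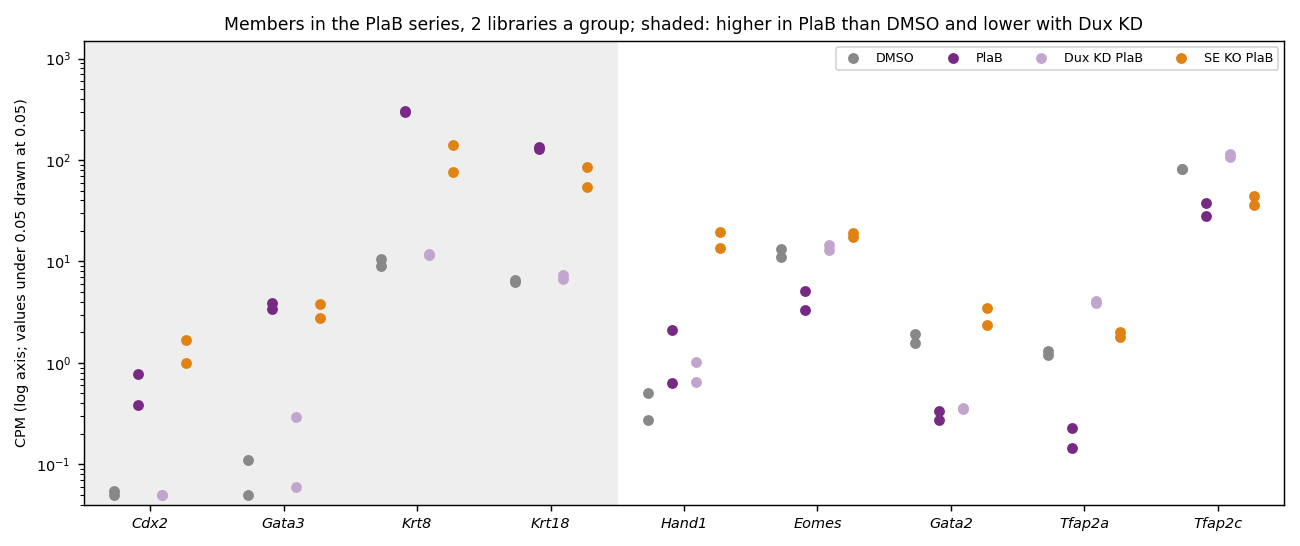
CPM (log axis) of the 9 tested members in DMSO, PlaB, Dux KD PlaB and SE KO PlaB, 2 libraries a group, with values under 0.05 drawn at 0.05. Shaded genes are the 4 that were higher in PlaB than in DMSO and lower with Dux KD, and for Krt8 and Krt18 the SE KO PlaB points lie between PlaB and DMSO.

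Eomes (9:118478212-118486132), a T-box factor needed for trophoblast stem cells, moved the other way under PlaB. It had 11.0 and 13.3 CPM in DMSO and 3.34 and 5.08 CPM in PlaB, a log2 change of -1.52 ± 0.21 (adjusted p = 2.65e-07). Dux KD PlaB had 14.6 and 13.1 CPM, a rise over PlaB of 1.71 ± 0.21 (adjusted p = 3.71e-08), and SE KO PlaB had 17.3 and 19.2 CPM, a rise of 2.11 ± 0.20 (adjusted p = 4.16e-10). SE KO PlaB was the highest of the 13 groups and did not overlap with the next. The control matters here, because Eomes was at 4.67 and 5.46 CPM in ESC, 1.26 ± 0.21 below DMSO on the log2 scale (adjusted p = 2.15e-05), and with ESC as the control the PlaB change was -0.26 (adjusted p = 0.317). RA (8.94 and 10.3 CPM) was not called against DMSO, and Dux KD RA (10.6 and 9.83 CPM) and SE KO RA (6.65 and 7.15 CPM) were not called against RA, nor was SE KO RA without replicate 1 (-0.43). Dux OE had 3.21 and 2.97 CPM and overlapped with SE KO Dux OE (2.55 and 3.76 CPM) at the low end of the order, and its log2 change from ESC of -0.71 ± 0.26 did not reach the fold threshold (adjusted p = 0.0405). The antisense gene Gm33460 overlaps Eomes and had 190 counts in all against 4265, and since the strand setting of the counting is not given in the sources used here, reads of the 2 cannot be told apart.

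Elf5, an ETS factor that locks in the trophoblast fate once its promoter loses methylation, was barely detected. It had 7 and 8 counts in PlaB, 0.339 and 0.363 CPM, and no more than 4 counts in any of the other 24 libraries. Both Dux KD PlaB libraries had 0 counts and SE KO PlaB had 1 and 0. In Dux OE and SE KO Dux OE all 4 libraries had 0 counts, which allows up to 3 counts a library. PlaB did not overlap with any other group, but no test was run on Elf5 because it did not pass the filter.

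Tfap2c (2:172549593-172558622), which encodes AP-2 gamma and was the member with the highest resting level, was the one that rose with Dux OE. It had 64.9 and 63.3 CPM in ESC and 170 and 177 CPM in Dux OE, a log2 change of 1.44 ± 0.10 (adjusted p = 8.62e-12), or 2.71-fold. Dux R70A OE had 91.6 and 88.2 CPM and SE KO Dux OE 90.0 and 84.6 CPM, each below both Dux OE libraries and above both ESC libraries. Against Dux OE these differences were -0.95 ± 0.10 (adjusted p = 1.70e-08) and -0.99 ± 0.10 (adjusted p = 3.71e-08), which passed the p threshold and missed the fold threshold narrowly. Dux R70A OE lay 0.49 ± 0.10 above ESC (adjusted p = 0.000231), also under the fold threshold.

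In the other inductions Tfap2c went down or changed little. It had 81.9 CPM in both DMSO libraries, 53.1 and 55.4 CPM in RA (log2 change -0.59 ± 0.10, adjusted p = 1.11e-05, not called) and 28.0 and 37.3 CPM in PlaB (-1.32 ± 0.10, adjusted p = 4.58e-12, called). With ESC in place of DMSO, the PlaB change was not called. Dux KD PlaB had 107 and 115 CPM, a rise over PlaB of 1.76 ± 0.10 (adjusted p = 1.16e-14). The libraries labelled Dux KD Zscan4 OE, whose Zscan4c was low, had 33.5 and 35.0 CPM against 75.5 and 79.8 CPM in Zscan4 OE, a change of -1.18 ± 0.11 (adjusted p = 2.22e-09), and Dux KD RA had 35.2 and 35.7 CPM, a change from RA of -0.61 ± 0.10 that was not called (adjusted p = 3.69e-05). Thus Tfap2c was lower in Dux KD RA than in RA and higher in Dux KD PlaB than in PlaB, with no overlap in either. SE KO RA had 41.6 and 41.4 CPM and SE KO PlaB 36.1 and 44.6 CPM, and neither was called.

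Tfap2a (13:40715302-40738376), which encodes AP-2 alpha, differed between the 2 controls. It had 6.22 and 9.33 CPM in ESC but 1.30 and 1.21 CPM in DMSO, a log2 difference of -2.62 ± 0.30 (adjusted p = 5.45e-08). PlaB had 0.145 and 0.227 CPM, 3 and 5 counts, and was lower than DMSO by a log2 change of -2.70 ± 0.50 (adjusted p = 2.44e-05). Dux KD PlaB had 3.89 and 4.12 CPM and SE KO PlaB 2.04 and 1.82 CPM, rises over PlaB of 4.37 ± 0.42 (adjusted p = 4.07e-10) and 3.32 ± 0.45 (adjusted p = 2.81e-07), both above the DMSO values. Dux OE had 4.30 and 5.34 CPM, Zscan4 OE 4.01 and 4.07 CPM and Dux R70A OE 1.40 and 1.13 CPM. Of these only Dux R70A OE was called against ESC (-2.61 ± 0.30, adjusted p = 6.05e-08), and it was also called against Dux OE (-1.92 ± 0.31, adjusted p = 1.87e-05). With DMSO as the control, Dux OE and Zscan4 OE came out called higher, by 1.94 and 1.68, and Dux R70A OE was at 0.02, so the direction for the overexpression groups rests on the choice of control. RA (1.98 and 1.54 CPM) was not called against DMSO and was called lower against ESC (-2.13). Gm47061 overlaps Tfap2a on the opposite strand and had 85 counts in all against 1354.

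Gata2 (6:88193891-88207032), a zinc finger factor of trophoblast and blood, fell in PlaB from 1.59 and 1.92 CPM in DMSO to 0.339 and 0.272 CPM, a log2 change of -2.50 ± 0.43 (adjusted p = 8.91e-06). Dux KD PlaB had 0.354 and 0.359 CPM, where the change from PlaB was 0.22 ± 0.58 (adjusted p = 0.741). SE KO PlaB had 2.38 and 3.45 CPM, a rise of 3.23 ± 0.40 (adjusted p = 4.97e-08). Gata2 and Hand1 were the members called in SE KO PlaB and not in Dux KD PlaB, and the 2 groups were not tested against each other. In Dux OE Gata2 had 0.364 and 0.473 CPM against 1.43 and 1.33 CPM in ESC, a change of -1.70 ± 0.47 (adjusted p = 0.00689) that was not called without Dux OE replicate 1 (-1.56, adjusted p = 0.0650). Dux R70A OE had 2.36 and 2.70 CPM, 2.57 ± 0.43 above Dux OE on the log2 scale (adjusted p = 2.50e-05).

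Hand1 (11:57828705-57832818), a helix-loop-helix factor of trophoblast giant cells and of extraembryonic mesoderm, reached its highest level in SE KO PlaB. It had 13.4 and 19.4 CPM there against 0.629 and 2.13 CPM in PlaB, a log2 change of 3.55 ± 0.36 (adjusted p = 1.44e-09), or 11.7-fold, and the next group, SE KO RA, had 2.05 and 2.37 CPM. Dux KD PlaB had 0.648 and 1.02 CPM, within the PlaB range. SE KO RA was above RA (0.352 and 0.838 CPM) by 1.89 ± 0.46 (adjusted p = 0.00128), and by 1.99 without replicate 1. The remaining calls for Hand1 were less firm. The rise of PlaB over DMSO (0.510 and 0.274 CPM) was 1.82 ± 0.55 (adjusted p = 0.00432), but it was 0.67 without PlaB replicate 2 and 1.41 without DMSO replicate 2, and was called in neither fit. With ESC in place of DMSO the PlaB change was not called, and both ESC libraries lay within the PlaB range. The fall of Zscan4 OE (0.194 and 0.271 CPM) from ESC (0.934 and 0.799 CPM) was -1.85 ± 0.70 (adjusted p = 0.0386), and it was not called when any one of the 4 libraries was left out (-2.13 to -1.65).

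Whether a knockdown or deletion acted differently by induction was tested as the difference of effects in the same model. The Dux KD effect under PlaB minus that under RA was called for 7 of the 9 tested members, beside 52.2% of all genes. Krt8 differed by -5.29 ± 0.26 (adjusted p = 3.38e-16), Krt18 by -4.67 ± 0.26 (9.68e-15), Gata3 by -6.37 ± 0.59 (3.06e-10) and Cdx2 by -7.54 ± 1.69 (0.000352), while Tfap2a differed by 3.79 ± 0.55 (8.80e-07), Tfap2c by 2.38 ± 0.15 (5.64e-14) and Eomes by 1.62 ± 0.29 (1.69e-05). The Dux KD effect of Gata3 was called in both inductions, with opposite signs. Krt8 (0.59), Krt18 (0.46) and Tfap2c (-0.61) also had a sign under RA opposite to that under PlaB, at an adjusted p under 0.05 in each, but their RA changes were not called. The value for Cdx2 depends on the prior count, since 2 libraries had 0 counts. The Dux KD effect under Zscan4 OE minus that under RA was called for 0 members, beside 12.3% of all genes (3 at an unadjusted p under 0.05, 0 by DESeq2).

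The SE KO effect under PlaB minus that under RA was called for 6 members, beside 49.0% of all genes, and for 5 by DESeq2, which did not call Gata3. Krt8 differed by -2.67 ± 0.23 (adjusted p = 6.41e-11), being lower than its induction under PlaB and higher under RA. Tfap2a differed by 3.85 ± 0.57 (adjusted p = 1.25e-06), Eomes by 2.59 ± 0.28 (6.74e-09) and Gata2 by 2.47 ± 0.53 (0.000192). Gata3 (1.35 ± 0.52, adjusted p = 0.0271) and Hand1 (1.66 ± 0.62, adjusted p = 0.0221) were called as well, but each was lost when some single libraries were left out, Gata3 without PlaB replicate 1, RA replicate 1, SE KO PlaB replicate 2 or SE KO RA replicate 1, and Hand1 without PlaB replicate 1, RA replicate 2 or SE KO PlaB replicate 2. Over those fits Gata3 was between 1.12 and 1.30 and Hand1 between 0.95 and 1.39. Without replicate 1 of SE KO RA, 5 of the 6 were called. The SE KO effect under Dux OE minus that under RA was called for 0 members, beside 20.8% of all genes (2 at an unadjusted p under 0.05, and 1 by DESeq2, Hand1).

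Most genes that act upstream of Cdx2 and Gata3 fell in PlaB. Of 12 Hippo and Notch pathway genes, 9 were called lower and 1 higher in PlaB against DMSO, beside 26.6% and 32.3% of all genes, with a median log2 fold change of -2.23 against 0.22 over all genes. Yap1, the coactivator itself, went from 163 to 11.2 CPM (-3.86 ± 0.10), Tead2 from 146 to 15.3 CPM (-3.25 ± 0.10) and the kinase gene Lats1 from 28.1 to 3.20 CPM (-3.13 ± 0.14), while the kinase gene Lats2 rose from 0.471 to 4.19 CPM (3.13 ± 0.35). With Dux KD 10 of the 12 were called higher than in PlaB and 1 lower, beside 26.1% and 28.8% of all genes, and with SE KO 10 higher and 0 lower, beside 25.9% and 26.1%, with Yap1 at 184 and 181 CPM. In RA against DMSO 3 were called higher and 1 lower, beside 20.6% and 10.4%, with Amot, which holds YAP1 outside the nucleus, rising from 7.92 to 42.0 CPM and Tead4 falling from 25.7 to 9.03 CPM (-1.51 ± 0.17). None of the 12 was called in Zscan4 OE against ESC, beside 7.25% of all genes higher and 4.39% lower. The same held in Dux OE against ESC, beside 7.38% and 2.12%. In Dux R70A OE against ESC 1 was called higher and 1 lower, beside 10.2% and 6.72%. DMSO against ESC had 2 called higher and 1 lower, beside 8.32% and 7.91%.

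Of 12 other genes of trophoblast stem cells and extraembryonic ectoderm, 7 were called higher and 3 lower both in RA and in PlaB, beside 20.6% and 10.4% of all genes in RA and 32.3% and 26.6% in PlaB. Their median log2 fold changes were 1.51 and 1.46, while their summed level was lower in both, at 320 and 322 CPM in RA and 349 and 416 CPM in PlaB against 538 and 540 CPM in DMSO. The homeobox gene Rhox6 rose from 0.196 CPM in DMSO to 4.57 CPM in RA and 8.00 CPM in PlaB, its neighbour Rhox9 from 0.309 to 2.30 and 4.85 CPM, and Plet1, a surface protein of trophoblast progenitors, from 0.361 to 8.75 CPM in PlaB. Fgfr2, the receptor for the FGF4 that sustains trophoblast stem cells, rose from 2.04 to 17.0 CPM in RA, while Cdh3 fell from 86.3 to 11.7 CPM there. In Dux KD PlaB 3 were called higher and 6 lower, beside 26.1% and 28.8% of all genes, with Rhox6 at 0.742 CPM, Plet1 at 1.10 CPM and Msx2 falling from 6.53 to 0.564 CPM. In Dux OE against ESC 3 were called higher and 2 lower, beside 7.38% and 2.12%, with Plet1 (0.524 to 2.30 CPM) and Fgfr2 (0.989 to 3.94 CPM) higher and Sox21 (7.74 to 1.85 CPM) lower. Fgfr2 was also called higher than in ESC in DMSO (log2 change 1.03), Zscan4 OE (1.83) and Dux R70A OE (1.35). In SE KO RA 0 were called higher and 4 lower than in RA, with and without replicate 1, beside 6.57% and 11.0% of all genes, Rhox6 among them with 0.698 and 0.634 CPM.

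Among 13 epithelial and transport genes, 6 were called higher and 2 lower in RA, beside 20.6% and 10.4% of all genes, and 7 higher and 3 lower in PlaB, beside 32.3% and 26.6%. Aqp3, a water channel of the blastocyst wall, rose from 20.2 to 625 CPM in RA (4.95 ± 0.15) and to 117 CPM in PlaB. Krt7, a keratin of trophoblast, rose from 0.248 to 8.90 CPM in PlaB (5.12 ± 0.49), whereas Cdh1, which encodes E-cadherin, fell from 504 to 62.5 CPM (-3.01 ± 0.09). Aqp3 was at 10.4 CPM and Cdh1 at 339 CPM in Dux KD PlaB. Of 15 genes of later trophoblast only 7 passed the filter, of which 4 were called higher and 1 lower in RA and likewise 4 and 1 in PlaB, beside the same shares. Plac1 had 0 counts in DMSO and reached 2.03 CPM in PlaB, and Ascl2, a factor of the ectoplacental cone, rose from 3.62 to 11.0 CPM in PlaB while it fell to 1.21 CPM in RA. Peg10, an imprinted gene needed for the placenta, fell from 1021 to 5.85 CPM in PlaB (-7.44 ± 0.21) and stood at 353 CPM in Dux KD PlaB and 810 CPM in SE KO PlaB.

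**Figure D4:**
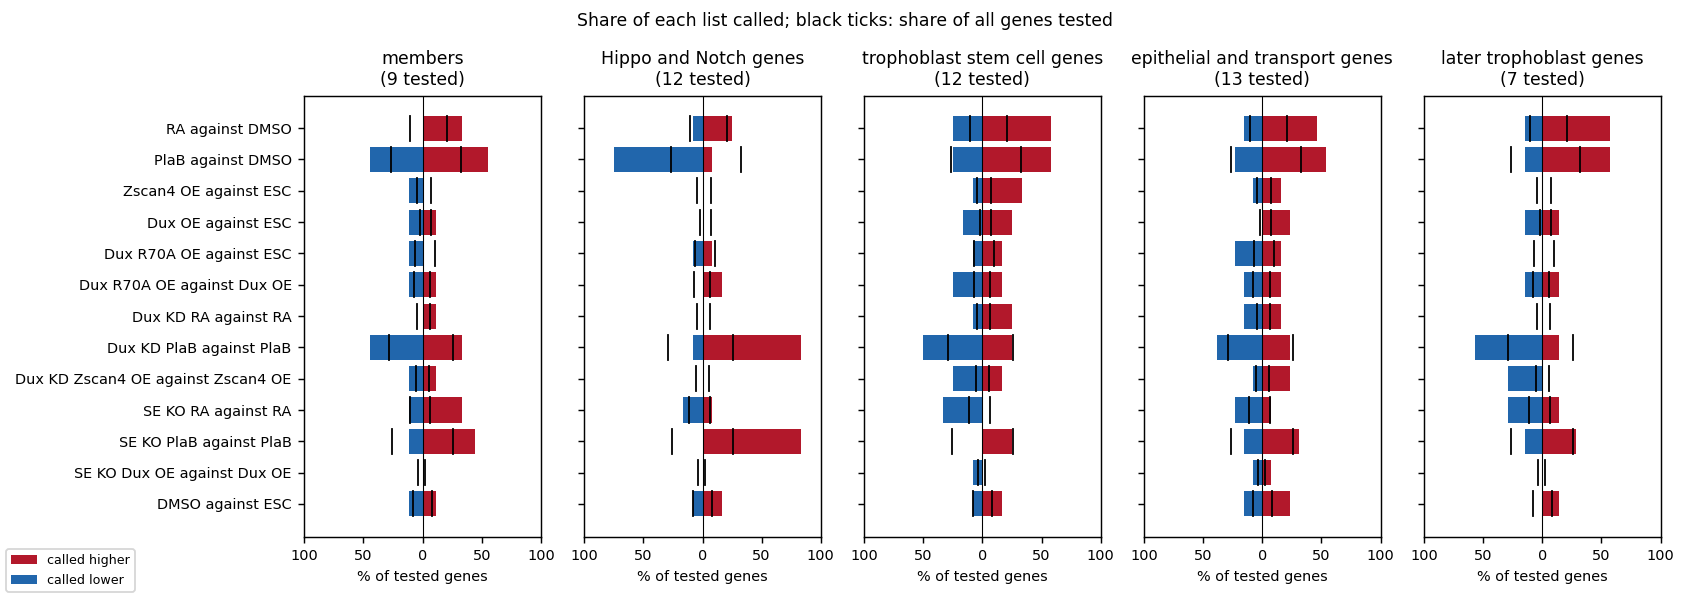
Percent of the tested genes of each list called higher (red, to the right) or lower (blue, to the left) in the 13 comparisons, with black ticks at the share of all tested genes. The Hippo and Notch genes reach 9 of 12 called lower in PlaB against DMSO and 10 of 12 called higher in Dux KD PlaB and in SE KO PlaB.

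Markers of other cell types moved in the same groups, and their part in the changes of the members was not tested. The 7 pluripotency markers summed to 5578 and 5762 CPM in DMSO, 3657 and 3719 CPM in RA and 2730 and 2731 CPM in PlaB. In RA 5 of 7 were called lower and 0 higher, beside 10.4% and 20.6% of all genes. The same counts in PlaB stood beside 26.6% and 32.3%. In Dux KD PlaB and SE KO PlaB 5 of 7 were called higher than in PlaB, beside 26.1% and 25.9% of all genes. The primitive endoderm lineage also expresses Krt8 and Krt18. Of 11 markers of this lineage, 9 were called higher and 0 lower in RA, beside 20.6% and 10.4% of all genes. The sums of these markers were 830 and 871 CPM in RA against 238 and 246 CPM in DMSO. In PlaB 5 were called higher, beside 32.3% of all genes, among them Sox17 (0.197 to 3.35 CPM), Pdgfra (1.03 to 13.6 CPM), Dab2 (1.54 to 8.92 CPM) and Gata6 (1.64 to 5.72 CPM). Another 3 were called lower, beside 26.6%, Col4a1 (101 to 29.4 CPM), Lama1 (35.6 to 8.24 CPM) and Lamb1 (95.2 to 46.0 CPM). The PlaB sums were 112 and 127 CPM, and Foxa2 had 0 counts in both PlaB and DMSO. SE KO PlaB had 7 called higher than PlaB and 0 lower, beside 25.9% and 26.1% of all genes, with sums of 539 and 605 CPM.

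Cdx2 and Eomes also act in the streak and caudal mesoderm. Of its 7 tested markers 1 was called higher in PlaB, Wnt3a (0.0822 to 0.559 CPM), beside 32.3% of all genes. Another 3 were called lower, Tbx6, Cdx1 and Fgf8, beside 26.6%. T and Mixl1 were at 0.794 and 1.12 CPM in PlaB, Fgf8 and Evx1 had 0 counts, and the sums were 6.08 and 6.83 CPM against 10.5 and 12.8 CPM in DMSO. In SE KO RA 3 were called higher and 1 lower than in RA (2 and 0 of 8 tested without replicate 1), and the sums were 68.2 and 70.03 CPM against 26.9 and 30.0 CPM, mostly from Cdx1 at 65.3 and 64.3 CPM. Over all genes 6.57% were called higher and 11.0% lower in SE KO RA against RA. Hand1 also acts in the extraembryonic and lateral mesoderm. Of its 6 markers 2 were called higher and 0 lower in SE KO PlaB than in PlaB, beside 25.9% and 26.1% of all genes. Kdr went from 0.643 to 9.97 CPM and Tbx20 from 1.81 to 9.63 CPM. Foxf1 and Postn had 0 counts in SE KO PlaB, and the sums, 77.7 and 78.2 CPM against 76.5 and 80.5 CPM, came mostly from Bmp4, which is also counted with the trophoblast stem cell genes. Of 10 markers of surface ectoderm and neural crest, 5 were called higher and 3 lower in PlaB, beside 32.3% and 26.6% of all genes. The higher ones were Krt5, Krt14, Pax3, Msx1 (0.0841 to 1.35 CPM) and Wnt6 (1.20 to 6.58 CPM). The lower ones were Foxd3 (7.54 to 0.188 CPM), Grhl3 (46.1 to 16.5 CPM) and Sox10. The sums of the 10 markers were 25.1 and 27.4 CPM in PlaB against 55.3 and 56.6 CPM in DMSO, and Trp63 and Dlx5 were at the floor in both groups. Of 6 tested fibroblast markers, 2 were called higher and 2 lower in PlaB, beside 32.3% and 26.6% of all genes. In RA 3 were called higher and 0 lower, beside 20.6% and 10.4%. Their sums were 55.3 and 63.1 CPM in RA against 35.8 and 37.1 CPM in DMSO.

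The members did not share one pattern over the 13 groups. Across group means of log2 CPM, the Pearson r was 0.94 between Krt8 and Krt18, 0.85 between Gata3 and Krt18 and 0.82 between Cdx2 and Krt8, but 0.17 between Cdx2 and Eomes and -0.77 between Gata3 and Tfap2c. These are descriptions over 13 points that share libraries, and at low levels they also carry depth. Among 12199 other genes of log2 CPM 1 or more on average, those closest to Krt8 were Itm2a (r = 0.94), Fxyd5 (0.94) and Ptpre (0.92), and those closest to Krt18 were Nrg1 (0.94), Osbpl9 (0.94) and Tbx3os1 (0.93). The closest to Gata3 were Bhmt (0.95), Dnajb13 (0.94) and Cyp7b1 (0.94), to Tfap2c Ankrd27 (0.92), Lima1 (0.92) and Galnt9 (0.88), and to Tfap2a Irf2bp1 (0.93), Mphosph9 (0.93) and Patz1 (0.92). For Cdx2 they were Klf6 (0.86), Rbm46 (0.86) and Ccn1 (0.85), for Eomes Cir1 (0.87), Fgf10 (0.86) and Tmf1 (0.84), for Gata2 Agap2 (0.88), Mtcl1 (0.86) and Braf (0.85), and for Hand1 Ptprn (0.84), Scrn1 (0.83) and Mvp (0.83).

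The 13 group means of each member were also put in order. How many neighbours in such an order do not overlap was not counted over all genes. With 2 libraries a group the number also depends on depth, and Tfap2c had 35019 counts in all libraries against 1078 for Hand1. Of the 12 pairs of neighbours in that order, 9 did not overlap for Tfap2c, 6 each for Gata2, Gata3, Krt8 and Krt18, 5 for Tfap2a, 3 each for Cdx2 and Eomes, and 1 each for Elf5 and Hand1. For Krt8 the order from the top was PlaB, SE KO PlaB, SE KO RA, Dux KD RA and RA, of which SE KO PlaB and SE KO RA overlapped, and for Gata3 it was Dux KD RA, PlaB, SE KO PlaB and RA, of which PlaB and SE KO PlaB overlapped. For Hand1 the single gap was between SE KO PlaB and SE KO RA, and for Elf5 it was between PlaB and Dux KD RA. Over the 13 comparisons, Gata3 and Tfap2a had the most calls of the tested members, 6 each, while Cdx2 and Krt18 had 3. Of all 20953 tested genes, 1319 were called in SE KO Dux OE against Dux OE and 12331 in PlaB against DMSO, the extremes. Calls per gene were not counted over all genes, so these numbers do not set the members apart from other genes.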

How the data were processed

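Poly(A) RNA-seq libraries of 26 samples were counted per gene by the authors, who deposited 1 table of raw counts with gene positions and summed exon lengths. The submitters' processing notes name FastQC, Trimmomatic, STAR, featureCounts, DESeq2 and mm10, and versions, strand setting and treatment of multimapping reads are not given in the sources used here. Groups were taken from the sample labels. Replicates of a group, which the study calls biological replicates, differed by more than sampling noise (chi-square per degree of freedom 1.55 to 30.2). The highest values were 30.2 in SE KO PlaB and 26.1 in the libraries labelled Dux KD Zscan4 OE. The p-values and SEs rest on a spread estimated over all groups together. They may therefore understate the error in the groups whose replicates differ most.

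Counts were filtered with filterByExpr, scaled by TMM and fitted over all 13 groups with edgeR 4.0.16 (quasi-likelihood F-test, R 4.3.3), with p adjusted by Benjamini-Hochberg over 20953 genes. Calls needed an adjusted p under 0.05 with a log2 change of 1 or more either way. SE is the fold change divided by the square root of F. RPKM was used only between genes. Intervals of count ratios are exact and cover counting error only. The script was tested on simulated data.

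The 10 members and all lists were chosen with earlier results of these data known. All members were named in every comparison, and from each other trophoblast list up to 4 called genes of largest change per comparison, with their levels in related groups. Genes of like pattern were the 3 of highest r with each member. Alternatives were RLE, library-size scaling, no filter, DESeq2 1.42.0, a replicate block, fits of the compared groups only, the other control and leaving out each library. Promoter sequences are from RefSeq (GRCm38.p6).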

Additional observations from a re-analysis of the deposited data

Results flagged for a closer look

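Effects of Dux KD or SE KO that differed between PlaB and RA, by the difference of effects in the edgeR model over all libraries, were as follows, each as the log2 effect under PlaB minus that under RA. For Dux KD, Cdx2 differed by -7.54, Gata3 by -6.37, Krt8 by -5.29 and Krt18 by -4.67, while Eomes differed by 1.62, Tfap2c by 2.38 and Tfap2a by 3.79. For SE KO, Krt8 differed by -2.67, Gata3 by 1.35, Hand1 by 1.66, Gata2 by 2.47, Eomes by 2.59 and Tfap2a by 3.85. The 2 treatments also differ in dose and length (0.53 µM for 48 h and 4 nM for 4 days), and inducer and time cannot be told apart.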

How the results depend on the processing

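Of 905 values recomputed under the alternatives other than leaving out a library, 874 kept their side of the threshold with no called value turning sign, and of 756 with 1 library left out, 721 did. Uncalled values that changed sign are among these, 18 and 50. Among called members the figures were 306 of 313 and 243 of 260. With RLE scaling 2 members were called lower in SE KO PlaB against PlaB (Krt8 and Krt18), 1 lower in SE KO Dux OE against Dux OE and 1 in the SE KO effect under Dux OE minus RA. DESeq2 gave 2, 1 and 1 there as well and lost Gata3 in the SE KO effect under PlaB minus RA. With library-size scaling 2 were called higher and 0 lower in Zscan4 OE against ESC, 2 higher in Dux R70A OE against ESC and 2 lower in SE KO PlaB. Without the filter 1 was called higher in Zscan4 OE and 1 in the SE KO effect under Dux OE minus RA. Fitting only the groups compared gave 2 called lower in Dux R70A OE against ESC and 2 lower in DMSO against ESC. The replicate block gave 1 call in the SE KO effect under Dux OE minus RA and changed no other call or count of members. The replicate numbers do not pair the libraries (r of deviations -0.0473 to 0.0237).

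With ESC in place of DMSO, 1 member was called lower in RA (Tfap2a, -2.13) and 2 lower in PlaB (Gata2 and Tfap2a), where Eomes, Tfap2c and Hand1 were no longer called. With DMSO in place of ESC, 1 was called higher and 0 lower in Zscan4 OE (Tfap2a 1.68), 2 higher and 2 lower in Dux OE (Tfap2a 1.94), and in Dux R70A OE Tfap2a was at 0.0176 and Eomes at -1.24. The cause of these changes was not tested. When single libraries were left out, members called lower ranged from 0 to 1 in Dux OE, Zscan4 OE and SE KO Dux OE and from 1 to 2 in SE KO PlaB. Those called higher ranged from 0 to 2 in Zscan4 OE and from 0 to 1 in Dux R70A OE and Dux KD Zscan4 OE, and calls in the effects under Zscan4 OE minus RA (Dux KD) and Dux OE minus RA (SE KO) from 0 to 1. For the differences of effects, and for the lists without SE KO RA replicate 1, this was added after seeing the data.

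Scaling moved the median of all genes, by RLE 0.15 in PlaB, -0.16 in Dux KD PlaB and -0.12 in SE KO PlaB, and by library size 0.26, -0.20 and -0.12 there and 0.19 in RA. Library-size scaling took the share of higher calls from 66.5% to 76.7% in RA, from 62.3% to 76.6% in Zscan4 OE, from 60.4% to 77.5% in Dux R70A OE against ESC and from 44.8% to 58.9% against Dux OE, and no filter from 39.0% to 50.1% in SE KO Dux OE. Fitting only the compared groups gave 1547 calls over all genes, against 2331, in the libraries labelled Dux KD Zscan4 OE. Members with few counts, Cdx2, Gata3 and Elf5, are limited by depth.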
